A study of Homo sapiens with 28 samples.

Results

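The decitabine response of A549 was compared with that of H1299, gene by gene, on the 16 arrays of the series that hold decitabine or vehicle RNA of these lines, of 28 arrays in all. Each line contributed 6 decitabine arrays, 2 each at 0.3, 1 and 3 µM, and 2 vehicle arrays. A549 and H1299 are established human lines of non-small cell lung cancer; A549 is known to carry wild-type p53 and H1299 to lack it. Cells grew for 48 h with decitabine (DAC), or with its solvent dimethyl sulfoxide as vehicle, and the drug was renewed every 24 h. RNA was hybridised to Affymetrix human expression arrays, and the deposited values are MAS5 signal, a linear brightness per probe set. Each line is a single line standing for its genotype, and the labels do not say whether the 2 arrays of a group are separate cultures, so p-values reflect only how far these arrays differ, which may be technical. The number of arrays limits the precision.

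Decitabine is a deoxycytidine analog that enters DNA during replication and traps DNA methyltransferases, so that methyl groups at CpG sites are lost as cells divide. Genes that a tumour line keeps silent by promoter methylation can then be transcribed, and germline genes are a known example. The trapped enzymes are also lesions in DNA, and cells with p53 can answer DNA damage by transcribing p53 target genes. Methylation was not measured here.

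The response of a line was the mean log2(signal + 32) of its 3 decitabine doses minus that of its vehicle, and the interaction was the A549 response minus the H1299 response. A positive interaction therefore means a larger rise, or a smaller fall, in A549. The 25th percentile of signal was 18 to 24.3 on 15 of the 16 arrays and 28.3 on A549 vehicle replicate 1, and A549 decitabine 3 µM replicate 1 carries a label that marks it as a repeat. These are the doubted arrays below. The first principal component held 86.2% of the variance and separated the lines, and the second held 5.14% and separated decitabine from vehicle within each line. As a check of the lines chosen after its values were seen, CDKN2A, which A549 is known to have lost, read 33.6 to 102 on the 8 A549 arrays and 1375 to 1658 on the 8 H1299 arrays.

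The interaction was called, at a Benjamini-Hochberg adjusted p under 0.05, for 1274 of 8024 genes (15.9%), of which 677 were positive (8.44%) and 597 negative (7.44%). Of the 1274, 1061 had all 6 decitabine arrays of A549, each taken against its own vehicle mean, on one side of all 6 of H1299; over all genes 21.6% did. Decitabine changed 1902 genes in A549 (23.7%), 1089 higher (13.6%) and 813 lower (10.1%). It changed 2550 in H1299 (31.8%), 1281 higher (16%) and 1269 lower (15.8%). Both lines called 894 genes, 47.0% of the A549 calls and 35.1% of the H1299 calls, and 782 of these moved the same way and 112 in opposite directions. Across the 8024 genes the responses of the lines, which share no array, had a Pearson correlation of 0.427 and a Spearman correlation of 0.409, as a description, since genes within a line share its vehicle arrays.

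By each line's own call, on the same arrays, the 677 positive interactions included 240 genes higher in A549 and not called in H1299, and 282 genes lower in H1299 and not called in A549. The 597 negative ones included 106 genes lower in A549 only and 347 higher in H1299 only. The interaction count was 968 without A549 vehicle replicate 1 and 830 without H1299 vehicle replicate 2. The A549 count was 982 without A549 vehicle replicate 1 and 914 without both doubted arrays. The H1299 count was 1517 without H1299 vehicle replicate 1 and 1640 without H1299 vehicle replicate 2.

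**Figure D1:**
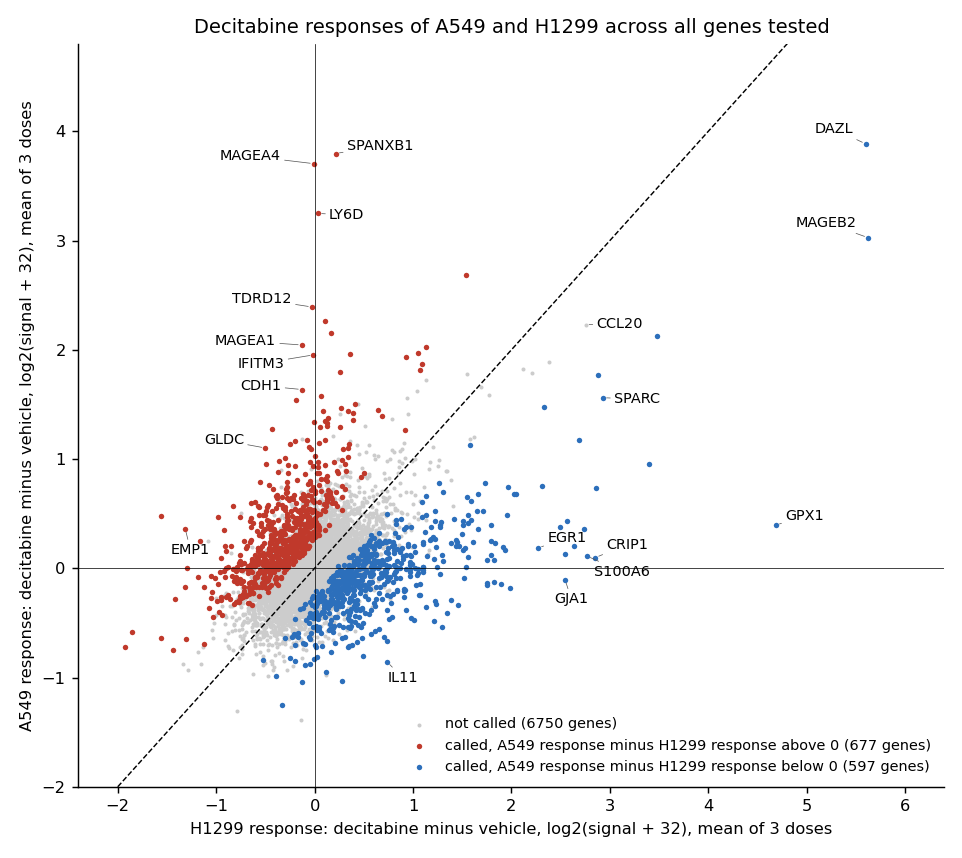
Each point is 1 of 8024 genes, with decitabine responses of the lines on the axes as log2(signal + 32) differences from vehicle; coloured points mark the 677 positive and 597 negative interactions. MAGEA4, SPANXB1 and LY6D have A549 responses of 3.70, 3.80 and 3.25 near an H1299 response of 0, and GPX1 has an H1299 response of 4.69 beside an A549 response of 0.40.

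Promoters of 4 genes among the 15 largest interactions of either sign are printed because decitabine acts at CpG sites and because each gene was bright in one line in vehicle and rose from near the floor in the other. GPX1 and S100A6 rose from there in H1299, TDRD12 and IFITM3 in A549. The windows run from 250 bases before to 50 after the gene start, 5′ to 3′ on the gene's strand, from RefSeq on GRCh38.p14, with each CG in capitals (CG reads the same on both strands).
GPX1, chr3:49358304-49358603, minus strand: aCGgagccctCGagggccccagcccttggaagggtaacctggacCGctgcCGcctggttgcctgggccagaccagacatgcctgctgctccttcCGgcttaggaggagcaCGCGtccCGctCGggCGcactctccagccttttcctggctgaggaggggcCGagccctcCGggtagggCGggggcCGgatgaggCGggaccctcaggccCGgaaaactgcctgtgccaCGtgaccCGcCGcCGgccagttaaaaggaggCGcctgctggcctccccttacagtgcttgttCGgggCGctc
S100A6, chr1:153535942-153536241, minus strand: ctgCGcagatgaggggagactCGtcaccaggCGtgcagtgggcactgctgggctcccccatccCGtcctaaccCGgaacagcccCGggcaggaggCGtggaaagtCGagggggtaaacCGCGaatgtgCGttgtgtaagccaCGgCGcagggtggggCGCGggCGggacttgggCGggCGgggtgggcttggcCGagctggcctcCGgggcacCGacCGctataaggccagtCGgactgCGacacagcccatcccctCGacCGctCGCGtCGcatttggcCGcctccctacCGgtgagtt
TDRD12, chr19:32719517-32719816, plus strand: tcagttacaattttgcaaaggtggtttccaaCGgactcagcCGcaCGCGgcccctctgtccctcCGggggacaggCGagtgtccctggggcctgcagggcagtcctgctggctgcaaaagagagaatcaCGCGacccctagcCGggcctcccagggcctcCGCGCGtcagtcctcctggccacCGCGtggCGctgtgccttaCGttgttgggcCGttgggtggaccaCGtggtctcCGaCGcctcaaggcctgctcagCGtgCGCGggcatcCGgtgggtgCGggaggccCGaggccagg
IFITM3, chr11:320811-321110, minus strand: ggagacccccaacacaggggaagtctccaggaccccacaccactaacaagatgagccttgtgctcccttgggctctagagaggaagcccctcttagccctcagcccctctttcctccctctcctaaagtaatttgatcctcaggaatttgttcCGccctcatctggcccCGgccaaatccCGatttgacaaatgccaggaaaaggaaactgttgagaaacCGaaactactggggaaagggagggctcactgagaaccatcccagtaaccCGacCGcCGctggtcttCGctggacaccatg
They hold 23, 31, 26 and 8 CG. These 4 were picked by hand from a larger set with that course. CRIP1, LXN and MAGEA4, described below, also had it, with 20 CG, 9 CG and a mean of 12.8 CG over 5 windows. Among the 35116 windows of all genes in the table, 96.0% hold at least 1 CG, the median is 14 and 43.6% hold fewer than 10. A window was found for 6662 of the 8024 tested genes (83.0%), with a median of 26.0 CG and 6.93% under 10. The 328 genes that rose in A549 with a positive interaction had a median of 26.0 and 8.18% under 10 (269 with a window), and the 456 that rose in H1299 with a negative interaction had a median of 24.0 and 10.1% under 10 (376 with a window). Among those whose interaction was also at least 1 in size, the 65 that rose in A549 had a median of 20 and 20% under 10 (11 of 55 windows), and the 111 that rose in H1299 a median of 22.0 and 22.4% under 10 (19 of 85 windows). These values describe sequence only.

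Genes that rose in H1299 and moved little in A549 headed the negative interactions. GPX1, the cytosolic glutathione peroxidase, read 2085 and 2339 in vehicle, 2543 and 2436 at 0.3 µM, 2926 and 3043 at 1 µM and 3465 and 3210 at 3 µM in A549. For GPX1, H1299 read 2.09 and 13.5 in vehicle, 1247 and 1104 at 0.3 µM, 880 and 1204 at 1 µM and 849 and 729 at 3 µM. No decitabine array of H1299 overlapped its vehicle, and all H1299 arrays stayed below those of A549. The responses were 0.40 in A549 (adjusted p = 0.023) and 4.69 in H1299 (adjusted p = 3.0e-17), an interaction of -4.29 (SE 0.17, adjusted p = 5.8e-13). Where vehicle reads below 32, the constant added before the logarithm, the size of a log2 difference depends on that constant. For GPX1 the interaction was -6.80 with a constant of 1 and -2.65 with a larger one, for S100A6, described next, -5.38 and -1.26, and for LXN and LY6D, described further on, -4.53 and -0.77, and 5.84 and 1.78. Of 109 named genes with a called interaction 46 moved by over 1.5 times under one or the other of these constants and 0 changed sign, while 15 lost their call with the constant of 1 and 1 with the larger one.

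S100A6, a small calcium-binding protein, CRIP1, a LIM-domain protein, and GJA1, the gap junction protein connexin 43, had the same pattern. S100A6 read 12260 to 15016 (median 12535) with decitabine and 11525 and 12270 in vehicle in A549, and 159 to 263 (median 216) with decitabine and 5.29 and 2.58 in vehicle in H1299. The A549 signals of S100A6 were near the top of the scale, where the highest signal on an array was as low as 16651. CRIP1 read 2854 to 3441 (median 2978) with decitabine and 2670 and 3114 in vehicle in A549, and 176 to 317 (median 241) with decitabine and 2.29 and 9.96 in vehicle in H1299. Decitabine and vehicle overlapped in A549 and were far apart in H1299. GJA1 read 3638 to 4432 (median 4224) with decitabine and 4652 and 4215 in vehicle in A549, and 480 to 572 (median 548) with decitabine and 71.5 and 60.7 in vehicle in H1299. The A549 responses of S100A6, CRIP1 and GJA1 were 0.11, 0.10 and -0.11 and were not called. The interactions were -2.65 (SE 0.11, adjusted p = 5.8e-13) for S100A6, -2.75 (SE 0.25, adjusted p = 7.3e-08) for CRIP1 and -2.65 (SE 0.13, adjusted p = 7.2e-12) for GJA1.

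ANXA3, an annexin (-2.16), and SPINT2, an inhibitor of serine proteases (-2.12), also rose in H1299 while A549 was bright throughout. A549 was not flat for either gene. SPINT2 read 2304 to 3241 with decitabine and 2075 and 2257 in vehicle there. ANXA3 read 2870 and 2609 in vehicle, 1669 and 1950 at 0.3 µM and 3070 and 3118 at 3 µM in A549. LXN, the carboxypeptidase inhibitor latexin (-2.12), rose in both lines. LXN read 1756 to 2307 (median 1951) with decitabine and 1145 and 1214 in vehicle in A549, and 205 to 273 (median 240) with decitabine and 3.43 and 7.6 in vehicle in H1299. The rise of LXN was larger in A549 in signal units and larger in H1299 in proportion, and the log2 scale follows the proportion. Another set was dim in A549 on every array. IL32, a cytokine, read 17.6 to 31.5 with decitabine and 9.31 and 12.6 in vehicle in A549, and 214 to 283 with decitabine and 15.1 and 16.8 in vehicle in H1299 (-2.13, adjusted p = 4.2e-07). DHRS2, a short-chain dehydrogenase, DRC9, of the dynein regulatory complex of cilia, and KHDC1L, a KH-domain gene, had interactions of -2.43, -2.41 and -2.37, with A549 signals of at most 121, 109 and 25.7.

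EGR1, an immediate-early transcription factor, and CCN2, the matricellular connective tissue growth factor, rose in H1299 from levels already well above the floor. EGR1 read 95.4 and 85.7 in vehicle, 79.9 and 92.6 at 0.3 µM, 131 and 120 at 1 µM and 109 and 118 at 3 µM in A549. For EGR1, H1299 read 365 and 341 in vehicle, 1097 and 1205 at 0.3 µM, 2110 and 1901 at 1 µM and 2678 and 2605 at 3 µM. The H1299 arrays were higher at each dose than at the one before, and the A549 response of 0.19 was not called (adjusted p = 0.19). CCN2 read 630 to 881 (median 822) with decitabine and 803 and 930 in vehicle in A549, and 4072 to 8372 (median 7010) with decitabine and 1688 and 1591 in vehicle in H1299. The interactions were -2.08 (SE 0.15, adjusted p = 2.0e-09) for EGR1 and -2.04 (SE 0.10, adjusted p = 1.1e-11) for CCN2.

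Genes that rose in A549 and not in H1299 headed the positive interactions, and germline genes were among the first. MAGEA4, a cancer-testis antigen, read 19.2 and 13.8 in vehicle, 722 and 740 at 0.3 µM, 787 and 567 at 1 µM and 326 and 587 at 3 µM in A549. For MAGEA4, H1299 read 6131 to 7003 (median 6435) with decitabine and 6668 and 6386 in vehicle. Every A549 decitabine array lay above its vehicle and below every H1299 array. The interaction was 3.71 (SE 0.23, adjusted p = 3.0e-10), with an H1299 response of -0.01 (adjusted p = 0.98). TDRD12, a tudor-domain protein of the germline piRNA pathway, read 168 to 232 with decitabine and 14.5 and 9.08 in vehicle in A549, and 3406 to 4053 with decitabine and 3707 and 3777 in vehicle in H1299 (2.42, adjusted p = 3.0e-10). MAGEA1, another antigen of this family, did likewise (2.17, adjusted p = 1.9e-08).

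SPANXB1, a sperm nuclear protein, rose in A549 and was near the floor in H1299 throughout. SPANXB1 read 829 to 1216 (median 1087) with decitabine and 39.2 and 51 in vehicle in A549, and 2.28 to 43.8 (median 29.2) with decitabine and 19.8 and 12.3 in vehicle in H1299. The interaction was 3.58 (SE 0.28, adjusted p = 9.4e-09). MAGE-A and SPANX genes have near-identical copies, so these probe sets may read more than 1 member of a family. LY6D, a surface protein of stratified epithelium, read 5.87 and 1.88 in vehicle, 92.3 and 133 at 0.3 µM, 333 and 323 at 1 µM and 744 and 721 at 3 µM in A549, and all H1299 arrays lay between 2.84 and 6.62. The A549 arrays of LY6D were higher at each dose than at the one before, and the interaction was 3.21 (SE 0.20, adjusted p = 3.4e-10). CDH1, the epithelial cadherin, read 502 to 908 with decitabine and 191 and 199 in vehicle in A549, and 1.78 to 12.5 with decitabine and 14.5 and 2.44 in vehicle in H1299 (1.77, adjusted p = 1.7e-06).

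IFITM3, an interferon-induced membrane protein that restricts virus entry, was bright in H1299 before treatment. IFITM3 read 201 to 292 (median 231) with decitabine and 31.4 and 43.6 in vehicle in A549, and 2143 to 2516 (median 2257) with decitabine and 2181 and 2404 in vehicle in H1299. The A549 arrays rose without reaching those of H1299, and the interaction was 1.97 (SE 0.17, adjusted p = 6.7e-08). HPD, an enzyme of tyrosine breakdown (1.99), CNGB1, a cyclic nucleotide-gated channel subunit (2.16), CLIC3, a chloride intracellular channel protein (1.60), PLCL2, a phospholipase C-like protein (1.74), and TFF1, a secreted trefoil peptide (1.71), rose in A549 while H1299 was at or below 46 on every array. With a constant of 1 the calls of CNGB1 (3.11, adjusted p = 0.072) and CLIC3 (0.74, adjusted p = 0.73) were lost. VAC14, a scaffold of the phosphoinositide kinase PIKfyve, had an interaction of 2.04 and fell by 1.56 in H1299, with all its signals at or below 131. One gene that the naming rule took is not reported here. In bulk RNA, fewer cells that express a gene and less RNA per cell cannot be told apart.

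**Figure D2:**
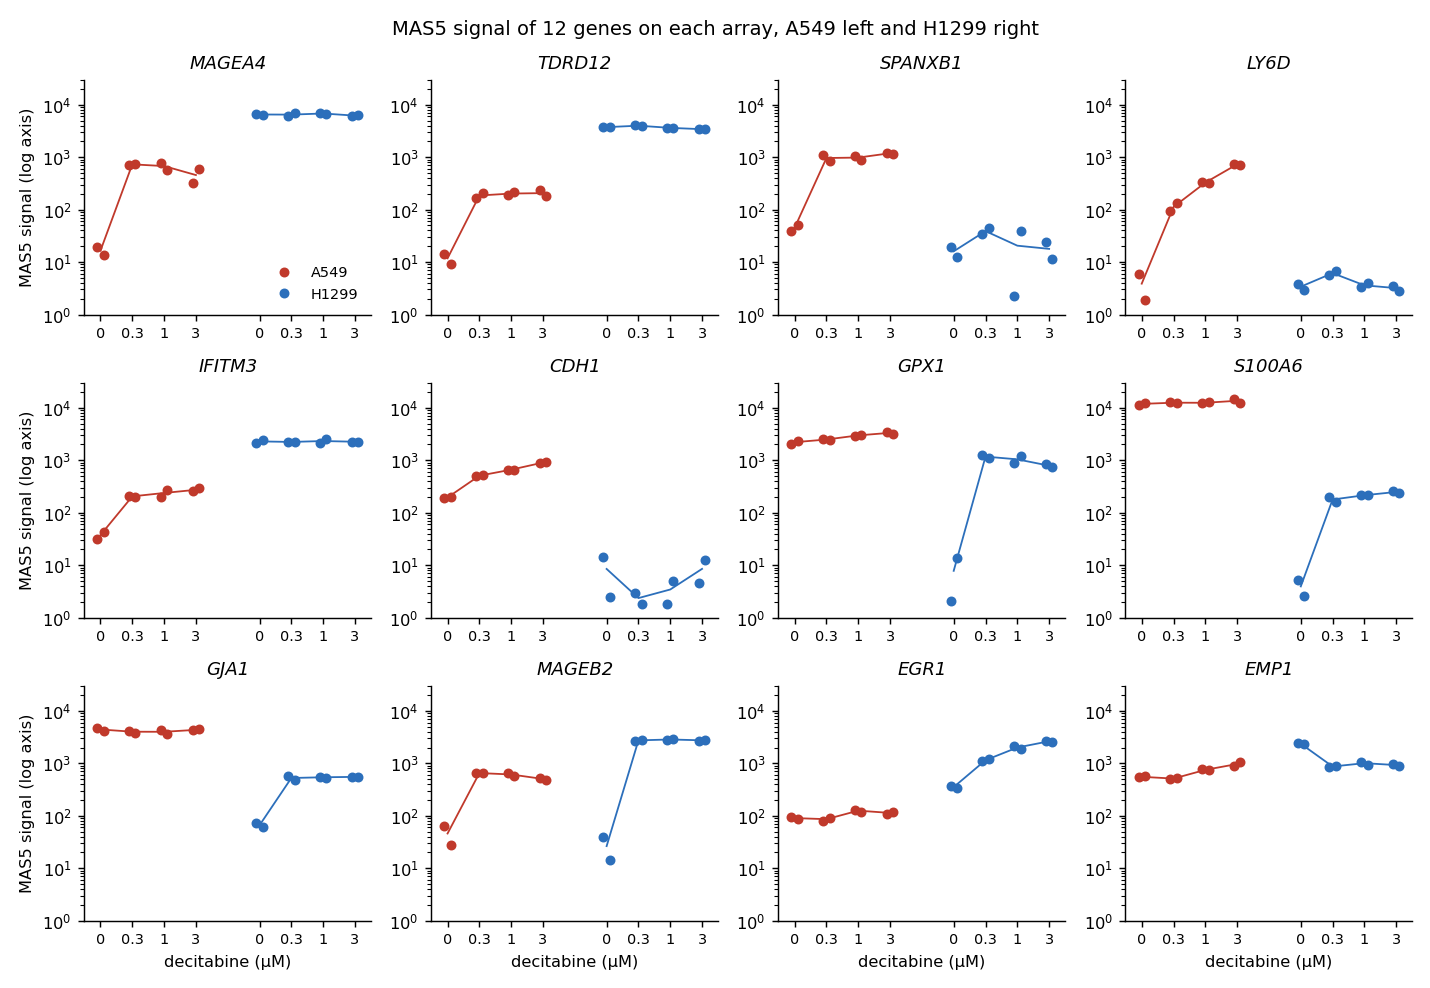
MAS5 signal on a log axis for 12 genes, 1 dot per array, with A549 left of H1299 and doses in µM, 0 being vehicle; lines join the means of the 2 arrays. MAGEA4, TDRD12, SPANXB1, LY6D, IFITM3 and CDH1 rose in A549 and not in H1299, and S100A6, GJA1 and EGR1 rose in H1299 while their A549 responses were not called.

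Genes called in opposite directions numbered 65 higher in A549 and lower in H1299, and 47 lower in A549 and higher in H1299. EMP1, an epithelial membrane protein, had the largest positive interaction of these, 1.68 (SE 0.16, adjusted p = 1.5e-07). EMP1 read 502 to 1045 (median 753) with decitabine and 543 and 566 in vehicle in A549, and 849 to 1077 (median 918) with decitabine and 2403 and 2336 in vehicle in H1299. All 6 H1299 arrays lay below vehicle, while in A549 the arrays at 0.3 µM lay below vehicle and the others above it. The A549 response of 0.36 (adjusted p = 0.022) was not called without one or the other A549 vehicle array, where the call of TSPAN12, a tetraspanin (1.40), was lost too. The A549 call of EMP1 was also lost without the 3 µM groups. GLDC, the glycine decarboxylase of the glycine cleavage system, separated from vehicle in both lines. GLDC read 1807 to 2351 (median 2194) with decitabine and 950 and 1011 in vehicle in A549, and 1308 to 1658 (median 1467) with decitabine and 2132 and 2026 in vehicle in H1299. A549 was below H1299 in vehicle and above it on every decitabine array. The responses were 1.10 in A549 (adjusted p = 6.1e-11) and -0.50 in H1299 (adjusted p = 3.5e-06). TENT5A, a nucleotidyltransferase (1.35), and CRYBG1 (1.24) followed, and the A549 call of CRYBG1 was lost without A549 vehicle replicate 2, and the H1299 call of TENT5A without H1299 vehicle replicate 1.

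In the other direction, IRS2, an insulin receptor substrate, read 938 to 1287 with decitabine and 1637 and 1513 in vehicle in A549, and 56.6 to 95.7 with decitabine and 21.7 and 6.58 in vehicle in H1299 (-1.84, adjusted p = 3.1e-07). IL11, a cytokine of the interleukin 6 family, had responses of -0.86 in A549 (adjusted p = 5.2e-06) and 0.74 in H1299 (adjusted p = 1.5e-05). IL11 read 593 to 832 (median 680) with decitabine and 1204 and 1341 in vehicle in A549, and 28.8 to 68.1 (median 56.6) with decitabine and 11.2 and 23.2 in vehicle in H1299. No decitabine array overlapped vehicle in either line. SMAD6, an inhibitor of BMP signalling (-1.44), and BST1, an ADP-ribosyl cyclase (-1.41), moved likewise, on H1299 signals of at most 61.5 and 75.5. In A549 the call of IRS2 was lost without A549 vehicle replicate 1, that of SMAD6 without one or the other vehicle array, and that of BST1 without A549 vehicle replicate 2. The A549 call of SMAD6 was also lost without A549 decitabine 1 µM replicate 2 or A549 decitabine 3 µM replicate 1, and those of all 3 with a constant of 1.

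The number of genes that differed between the lines was larger at each higher dose. The interaction was called for 401 genes at 0.3 µM (5%), with 2.37% positive and 2.63% negative. At 1 µM it was called for 833 (10.4%), with 5.56% positive and 4.82% negative, and at 3 µM for 1383 (17.2%), with 9.38% positive and 7.85% negative, all against the same vehicle arrays. A direct test of the interaction at 3 µM minus that at 0.3 µM, which uses no vehicle array, called 303 genes (3.78%), 172 positive (2.14%) and 131 negative (1.63%). This last count was 161 and 189 without one or the other A549 array at 0.3 µM, 139 without A549 decitabine 3 µM replicate 1, 130 without H1299 decitabine 0.3 µM replicate 1, and 170 and 134 without one or the other H1299 array at 3 µM. The count at 0.3 µM was 265 and 255 without one or the other A549 array at that dose, 239 without H1299 decitabine 0.3 µM replicate 1, and 255 and 244 without one or the other H1299 vehicle array. The count at 1 µM was 550 without H1299 vehicle replicate 1, and that at 3 µM was 873 without both doubted arrays.

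LY6D had the largest positive change with dose, with interactions of 1.89, 3.32 and 4.42 at 0.3, 1 and 3 µM and a change of 2.53 (SE 0.25, adjusted p = 8.8e-06), a call lost with a constant of 1 (adjusted p = 0.079). TSPAN1, a tetraspanin of epithelia, changed by 1.91 (SE 0.41, adjusted p = 0.011). In A549 it read 37 and 17.2 in vehicle, 36.8 and 20.9 at 0.3 µM, 97.1 and 123 at 1 µM and 175 and 187 at 3 µM. For TSPAN1, H1299 read 67.2 to 146 with decitabine and 55.7 and 62.7 in vehicle. Its A549 arrays separated by dose and its H1299 arrays did not, and the call was lost without A549 decitabine 0.3 µM replicate 2, H1299 decitabine 0.3 µM replicate 1 or H1299 decitabine 3 µM replicate 1. MAPK3, the kinase ERK1, changed by 1.94 (SE 0.53, adjusted p = 0.046), but its A549 arrays at 0.3 µM read 34.5 and 187, and the call was lost under 19 of 29 alternatives.

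Among negative changes with dose, ARL14, a small GTPase, changed by -1.83 (SE 0.23, adjusted p = 2.6e-04). A549 stayed between 16.4 and 35.8, while H1299 read 226 and 228 in vehicle, 335 and 487 at 0.3 µM, 1226 and 1207 at 1 µM and 1726 and 1608 at 3 µM. EGR3, an immediate-early factor related to EGR1, changed by -2.05 (SE 0.32, adjusted p = 9.7e-04). At 3 µM it read 8.16 and 19.2 in A549 and 125 and 123 in H1299, where vehicle read 36.7 and 25.6 in A549 and 26.3 and 23.3 in H1299. NR4A3, an orphan nuclear receptor, changed by -1.40 (SE 0.30, adjusted p = 0.011), and the call was lost without A549 decitabine 3 µM replicate 1. Its H1299 arrays were below 10 except at 3 µM, where they read 49.9 and 47.5.

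**Figure D3:**
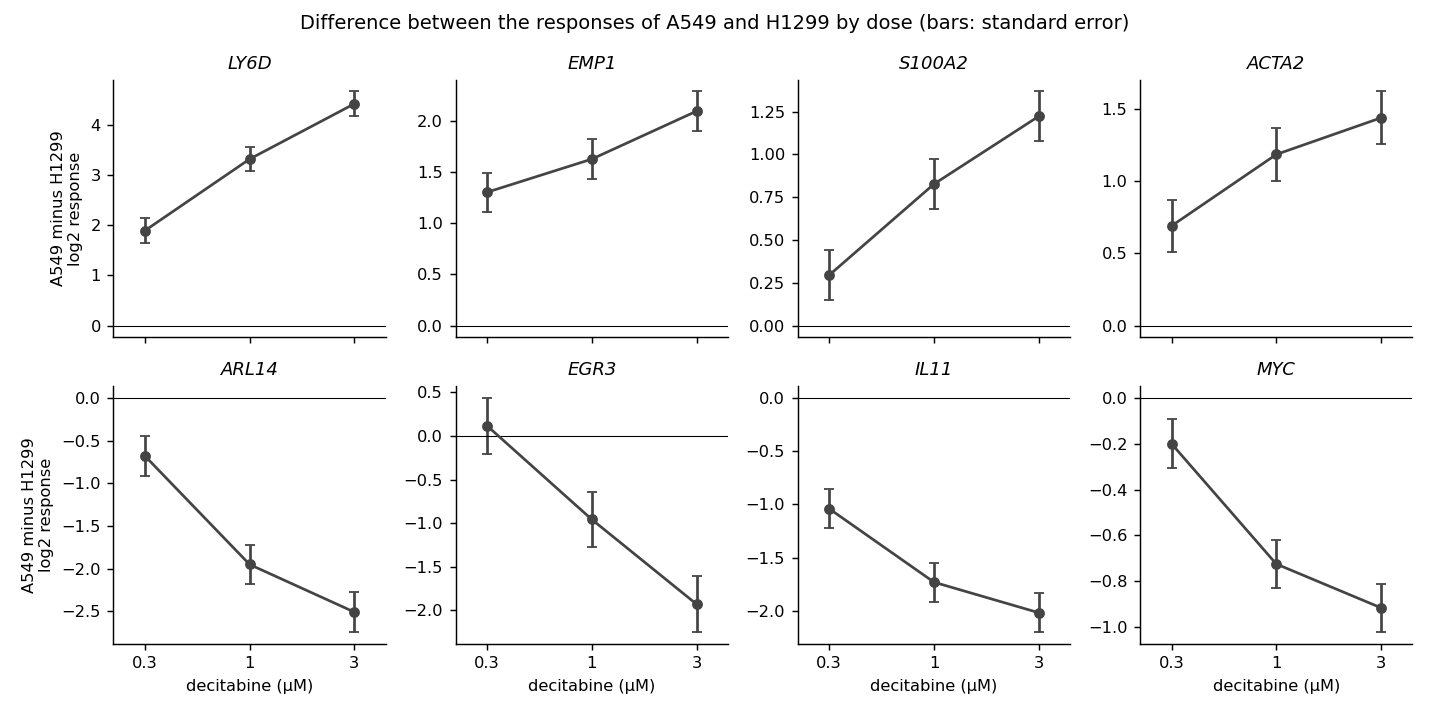
Interaction (A549 response minus H1299 response, log2) at 0.3, 1 and 3 µM for 8 genes, with standard errors as bars. LY6D, EMP1, S100A2 and ACTA2 had higher interactions at 3 µM than at 0.3 µM, and ARL14, EGR3, IL11 and MYC lower ones, from -0.68 to -2.51 for ARL14.

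Pathway and cell type lists were described by how many tested members were called, beside 8.44% positive and 7.44% negative over all genes and a median interaction of 0.011. Members passed the filter on dim probe sets partly through the group where they are high, and no test of a list was made. Counts of 1 to 4 members moved by over 1.5 times in many lists when 1 array was left out.

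**Figure D4:**
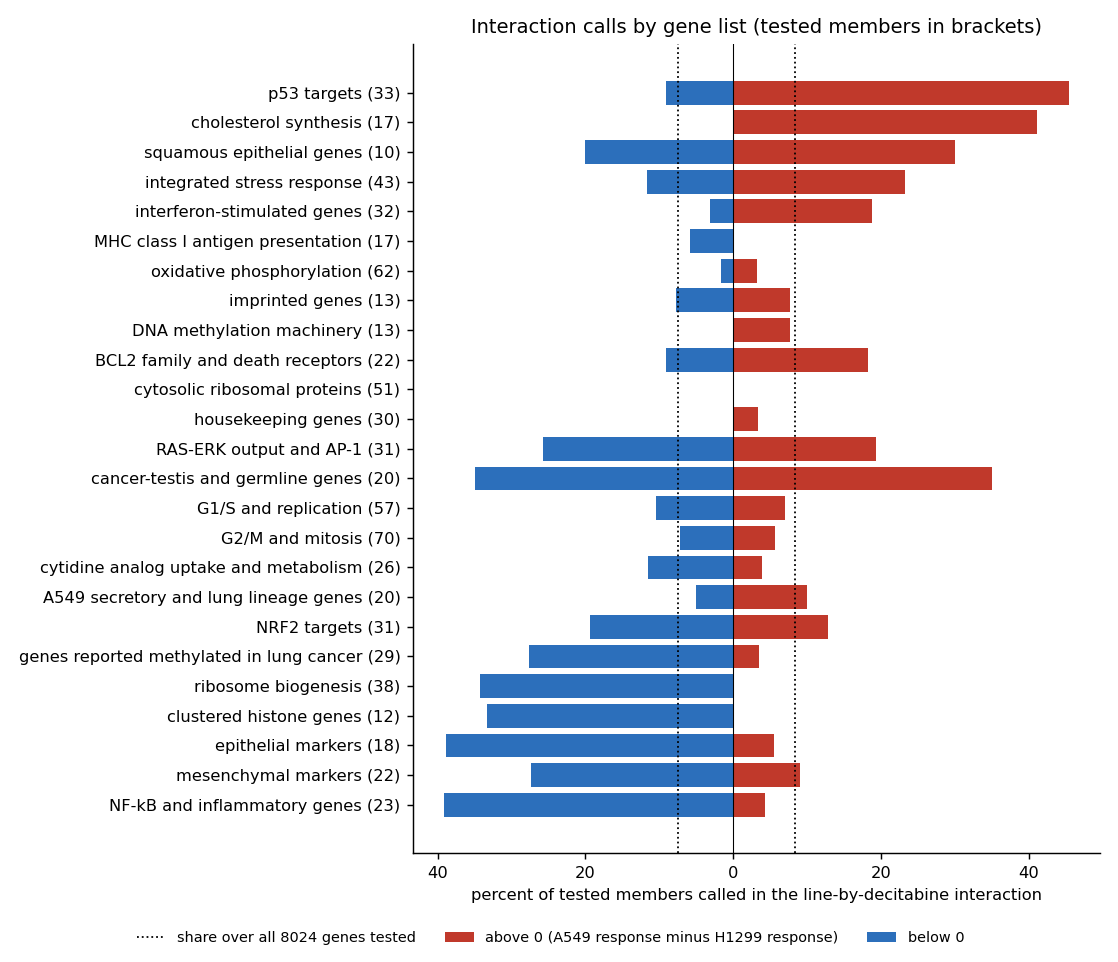
Share of tested members called in the interaction for each list, positive and negative, beside the shares over all genes of 8.44% and 7.44%. Of p53 targets 45.5% were positive, of NF-kB and inflammatory genes 39.1% were negative, and of cancer-testis and germline genes 35.0% were called on either side.

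Of 50 p53 targets 33 were tested, and 15 had a positive and 3 a negative interaction, with a median of 0.388. In A549 24 rose (72.7%, beside 13.6% over all genes) and 0 fell. In H1299 11 rose (33.3%), or 7 without the 3 µM groups, and 5 fell (15.2%, beside 15.8% over all genes). FAS, a death receptor, read 456 and 489 in vehicle, 818 and 757 at 0.3 µM, 1319 and 1210 at 1 µM and 1705 and 1780 at 3 µM in A549. For FAS, H1299 read 450 and 462 in vehicle, 285 and 314 at 0.3 µM, 521 and 520 at 1 µM and 652 and 709 at 3 µM. H1299 lay below its vehicle at 0.3 µM and above it at the higher doses, whereas A549 was above vehicle throughout (1.24, adjusted p = 2.5e-07). CYFIP2, of the WAVE complex, had the largest interaction of the list (1.39) and rose by 1.14 in A549. PPM1D, a phosphatase that switches off p53 signalling, rose by 1.45 in A549 and by 0.65 in H1299 (0.80, adjusted p = 5.3e-04). ASCC3, a helicase, rose by 0.42 in A549 and fell by 0.63 in H1299.

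CDKN1A, the cell cycle inhibitor p21, rose in both lines. CDKN1A read 2005 to 3767 (median 3052) with decitabine and 1078 and 1259 in vehicle in A549, and 712 to 934 (median 867) with decitabine and 451 and 422 in vehicle in H1299. No decitabine array overlapped vehicle in either line. The interaction of 0.36 (SE 0.11, adjusted p = 0.031) was lost under 12 of 30 alternatives, among them without A549 vehicle replicate 1, A549 decitabine 0.3 µM replicate 2, A549 decitabine 3 µM replicate 1, either H1299 vehicle array or H1299 decitabine 1 µM replicate 2. MDM2, the ubiquitin ligase of p53, had an interaction of 0.61 that was not called (adjusted p = 0.095). PLK2, a polo-like kinase, was negative: it read 2946 to 3714 with decitabine and 3462 and 3809 in vehicle in A549, and 1240 to 1910 with decitabine and 742 and 766 in vehicle in H1299 (-1.10, adjusted p = 2.2e-08). The positive count of the list was 9 without H1299 vehicle replicate 1 and 9 without the 3 µM groups, and the negative count was 1 without H1299 vehicle replicate 2. The 5 that fell in H1299 were 2 without H1299 vehicle replicate 1, 2 without H1299 vehicle replicate 2 and 3 without H1299 decitabine 0.3 µM replicate 1.

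**Figure D5:**
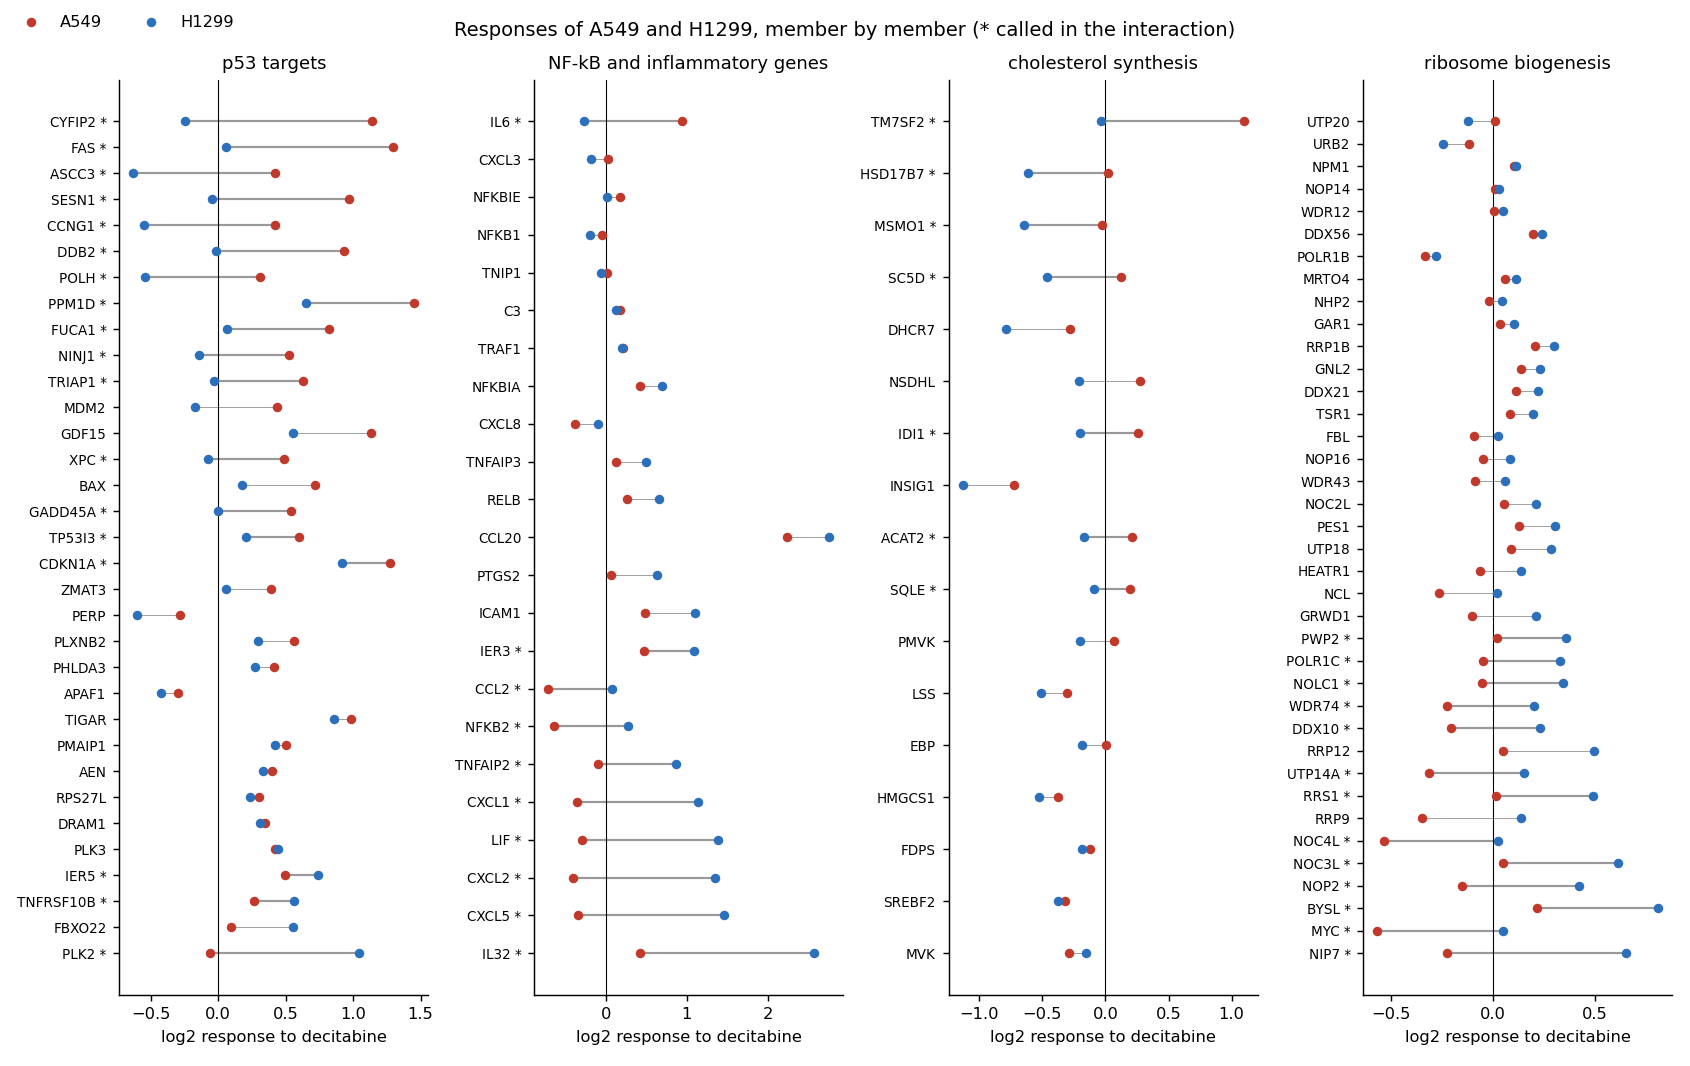
Decitabine response of every tested member of 4 lists in A549 and H1299, as log2(signal + 32) differences from vehicle over the 3 doses, ordered by interaction. Called interactions number 18 of 33 p53 targets, 10 of 23 NF-kB and inflammatory genes, 7 of 17 cholesterol synthesis genes and 13 of 38 ribosome biogenesis genes.

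Of 17 tested cholesterol synthesis genes (of 25) 7 had a positive and 0 a negative interaction by limma (at an unadjusted p under 0.05, 9 and 0), with a median of 0.384. In A549 4 rose (23.5%) and 5 fell (29.4%), which became 2 and 3 without one or the other A549 vehicle array. Without A549 decitabine 3 µM replicate 1, 3 fell. In H1299 0 rose and 10 fell (58.8%). MSMO1, a sterol C4 methyl oxidase, had an interaction of 0.62 (SE 0.13, adjusted p = 0.0025). MSMO1 read 1267 to 1570 (median 1450) with decitabine and 1526 and 1402 in vehicle in A549, and 799 to 1342 (median 1097) with decitabine and 1756 and 1664 in vehicle in H1299. A549 overlapped its vehicle and all H1299 decitabine arrays lay below theirs. HSD17B7, a sterol ketoreductase (0.63), and SC5D, a sterol desaturase (0.59), had the same course. TM7SF2, a sterol reductase, differed through A549: it read 84.8 to 178 with decitabine and 34.9 and 51.6 in vehicle in A549, and 95.4 to 121 with decitabine and 140 and 87.6 in vehicle in H1299 (1.13, adjusted p = 0.0027).

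Of 43 tested genes of the integrated stress response (of 48) 10 had a positive and 5 a negative interaction, with a median of 0.153. With decitabine, 4 members rose (9.3%, beside 13.6% over all genes) and 9 fell (20.9%, beside 10.1%) in A549. More fell in H1299, where 6 rose and 19 fell (44.2% lower, beside 15.8% over all genes). CTH, an enzyme of cysteine synthesis, read 189 to 282 with decitabine and 77.8 and 72.8 in vehicle in A549, and 197 to 284 with decitabine and 216 and 225 in vehicle in H1299 (1.18, adjusted p = 6.6e-05). DDIT4, an inhibitor of mTORC1 (0.98), and NIBAN1 (0.95) fell in H1299 by 1.05 and 1.12, with A549 responses of -0.07 and -0.17 that were not called. DDIT3, the transcription factor CHOP, read 175 to 219 with decitabine and 195 and 186 in vehicle in A549, and 271 and 247 in vehicle, 372 and 442 at 0.3 µM, 478 and 632 at 1 µM and 694 and 691 at 3 µM in H1299 (-0.92, adjusted p = 0.0012).

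Of 23 tested NF-kB and inflammatory genes (of 35) 9 had a negative and 1 a positive interaction, with a median of -0.522. In A549 7 rose and 3 fell, and 3 or 4 rose when A549 vehicle replicate 1 (3), A549 vehicle replicate 2 (4), A549 decitabine 0.3 µM replicate 1 (4) or A549 decitabine 1 µM replicate 2 (4) was left out, and 1 fell without A549 vehicle replicate 1. In H1299 13 rose and 0 fell, and 7 rose when probe sets had to lie above the 75th percentile of an array, a filter that tests fewer genes. CXCL5, a neutrophil chemokine, had an interaction of -1.80 (SE 0.19, adjusted p = 8.9e-07). CXCL5 read 2147 to 3063 (median 2484) with decitabine and 3288 and 3048 in vehicle in A549, and 69.8 to 146 (median 114) with decitabine and 11.3 and 26.4 in vehicle in H1299. CXCL2, another chemokine, was called in opposite directions. CXCL2 read 135 to 166 (median 148) with decitabine and 212 and 201 in vehicle in A549, and 204 to 332 (median 251) with decitabine and 76 and 81.3 in vehicle in H1299. A549 lay above H1299 in vehicle and, on all decitabine arrays, below it. The responses were -0.41 in A549 (adjusted p = 0.016) and 1.35 in H1299 (adjusted p = 1.8e-08). The A549 call was lost when A549 vehicle replicate 1, A549 vehicle replicate 2 or the 3 µM groups were left out. LIF, a cytokine, had an interaction of -1.67. CCL20, a chemokine, rose by 2.23 in A549 and by 2.75 in H1299, and its interaction of -0.52 (95% interval -1.04 to 0.00) was not called.

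Of 38 tested ribosome biogenesis genes (of 50) 13 had a negative and 0 a positive interaction by limma (at an unadjusted p under 0.05, 19 and 0), with a median of -0.187. In A549 0 rose and 5 fell (13.2%, beside 10.1% over all genes). The 5 were 2 without A549 vehicle replicate 1 and 3 without A549 vehicle replicate 2. In H1299 16 rose (42.1%) and 0 fell, and 10 rose without H1299 vehicle replicate 1. BYSL, a factor of the small ribosomal subunit, read 568 to 713 with decitabine and 606 and 523 in vehicle in A549, and 1279 to 1480 with decitabine and 722 and 823 in vehicle in H1299 (-0.59, adjusted p = 0.0034). MYC, a transcription factor that is itself counted in this list, read 1995 and 2348 in vehicle, 1707 and 1826 at 0.3 µM, 1374 and 1395 at 1 µM and 1235 and 1264 at 3 µM in A549. For MYC, H1299 read 3262 and 3326 in vehicle, 3267 and 2930 at 0.3 µM, 3505 and 3519 at 1 µM and 3676 and 3583 at 3 µM. The A549 arrays of MYC were lower at each higher dose and the H1299 arrays overlapped their vehicle. Its interaction was -0.61 (SE 0.09, adjusted p = 4.2e-05) and changed by -0.72 (SE 0.11, adjusted p = 6.0e-04) between 0.3 and 3 µM. NIP7 (-0.87) and NOP2 (-0.57), which act on the large subunit, were also called. Of 51 tested cytosolic ribosomal proteins limma called 0 (at an unadjusted p under 0.05, 0 positive and 0 negative).

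Of 12 tested clustered histone genes (of 42) 4 were negative and 0 positive by limma (at an unadjusted p under 0.05, 4 and 0). H2BC12 read 2850 to 3220 with decitabine and 2843 and 2790 in vehicle in A549, and 4633 to 5554 with decitabine and 2631 and 2400 in vehicle in H1299 (-0.86, adjusted p = 1.4e-06). Histone H2B genes are near-identical, so a probe set may read several. Of 31 tested genes of RAS-ERK output and AP-1, 6 were positive, EMP1 among them, and 8 negative, EGR1 and IL11 among them, with a median of -0.022.

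The 20 tested cancer-testis and germline genes, of 67, had 7 positive and 7 negative interactions and a median of -0.041. In A549 14 rose (70.0%, beside 13.6% over all genes) and 0 fell. In H1299 8 rose (40.0%) and 0 fell, with 5 rising under that stricter filter and 13 with no filter. MAGEB2, a cancer-testis antigen, rose in both lines. MAGEB2 read 485 to 666 (median 605) with decitabine and 64 and 28 in vehicle in A549, and 2701 to 2949 (median 2776) with decitabine and 38.7 and 14.2 in vehicle in H1299. The lines overlapped in vehicle, and H1299 reached higher signals on every decitabine array (-2.60, adjusted p = 6.3e-09). DAZL, a germ cell RNA-binding protein, had responses of 3.89 in A549 (adjusted p = 1.8e-14) and 5.60 in H1299 (adjusted p = 1.0e-17) and an interaction of -1.71 (SE 0.19, adjusted p = 1.4e-06). DAZL read 609 to 876 (median 748) with decitabine and 27.2 and 13.7 in vehicle in A549, and 1344 to 1976 (median 1722) with decitabine and 3.2 and 3.85 in vehicle in H1299. The negative count was 4 without A549 vehicle replicate 1 and 4 without H1299 vehicle replicate 2.

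Of 18 tested epithelial markers (of 34) 7 were negative and 1, CDH1, was positive, with a median of -0.322. In A549 8 rose (44.4%, beside 13.6% over all genes) and 1 fell (5.56%, beside 10.1%). In H1299 12 rose (66.7%) and 0 fell. Their summed signal was 41695 to 48481 in A549 with decitabine and 36378 to 39593 in vehicle, and 12451 to 13658 in H1299 with decitabine and 7276 to 7599 in vehicle. KRT8, a keratin of simple epithelia, read 7203 to 9209 with decitabine and 6813 and 7602 in vehicle in A549, and 962 to 1217 with decitabine and 406 and 349 in vehicle in H1299 (-1.24, adjusted p = 7.3e-08). LSR, a tight junction protein, had an interaction of -1.18. EPCAM, the epithelial adhesion molecule, rose by 1.83 in A549 and by 2.12 in H1299, and its interaction of -0.30 (95% interval -0.72 to 0.12) was not called. It was 0.40, adjusted p = 0.017, with the larger constant and -1.41, adjusted p = 0.025, with a constant of 1, so its direction is not settled.

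Of 22 tested mesenchymal markers (of 32) 2 were positive and 6 negative, with a median of -0.383. The positive count was 1 without A549 vehicle replicate 2 or H1299 vehicle replicate 1. In A549 4 rose (18.2%) and 7 fell (31.8%), of which 3 fell without A549 vehicle replicate 1. In H1299 10 rose (45.5%) and 4 fell (18.2%, beside 15.8% over all genes). There 6 rose without one or the other H1299 vehicle array, and 1 fell without H1299 vehicle replicate 1. SPARC, a matricellular protein, rose by 1.56 in A549 and by 2.93 in H1299 (-1.37, adjusted p = 2.3e-04). SPARC read 1006 to 1361 with decitabine and 358 and 369 in vehicle in A549. In H1299 it read 368 to 501 with decitabine and 26.1 and 30.5 in vehicle. Its rise was larger in A549 in signal units and larger in H1299 in proportion. The interaction was -2.23 with a constant of 1 and -0.47 with the larger one. S100A4, a calcium-binding protein, rose by 1.54 in H1299 and had an A549 response of 0.01 (-1.53, adjusted p = 1.4e-05). Its A549 signals were near the top of the scale, like those of S100A6, at 10482 to 12275 with decitabine and 10312 and 11949 in vehicle. ACTA2, the smooth muscle actin, was positive (1.11, adjusted p = 2.6e-05). ACTA2 read 691 to 2023 (median 1328) with decitabine and 454 and 395 in vehicle in A549, and 140 to 270 (median 216) with decitabine and 135 and 181 in vehicle in H1299. Of 10 tested squamous genes (of 42) 3 were positive and 2 negative. S100A2, a calcium-binding protein (0.78), rose in both lines and more in A549, and SFN, the 14-3-3 sigma protein (-0.95), rose in both and more in H1299. AQP3, an aquaporin, rose in both lines, and its interaction depended on the constant, being 0.89 (adjusted p = 7.8e-04) with 32 and 0.19, adjusted p = 0.66, with 1. AQP3 read 889 to 1681 (median 1426) with decitabine and 303 and 284 in vehicle in A549, and 65.1 to 121 (median 83.7) with decitabine and 25.8 and 17.7 in vehicle in H1299.

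Of 29 tested genes reported methylated in lung cancer (of 44) 1 was positive and 8 negative, with a median of -0.097. IGFBP3, a binding protein of insulin-like growth factors, read 2133 to 3111 with decitabine and 2389 and 2540 in vehicle in A549, and 211 to 542 with decitabine and 88 and 83.5 in vehicle in H1299 (-1.68, adjusted p = 2.5e-09). TFPI2, a protease inhibitor (-1.34), and DKK1, a Wnt antagonist (-1.22), followed. CDKN2A was also among the 8. It read 33.6 to 72.2 with decitabine and 102 and 98 in vehicle in A549. In H1299 it read 1375 to 1658 with decitabine and 1549 and 1629 in vehicle. Since A549 is known to have lost this gene, its call cannot be read as a response of CDKN2A. What its A549 probe set reads was not tested. Of 13 tested imprinted genes 1 was positive and 1 negative, the negative one being MEST, which read 1480 to 1742 with decitabine and 1375 and 1375 in vehicle in A549, and 237 to 331 with decitabine and 54.6 and 58.8 in vehicle in H1299 (-1.60, adjusted p = 4.5e-10).

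Of 32 tested interferon-stimulated genes (of 52) 6 were positive and 1 negative, with a median of 0.138. The count of positive interactions was 3 without the 3 µM groups and was also lower without A549 vehicle replicate 2. IFIH1, a sensor of double-stranded RNA, read 12.4 to 56.5 with decitabine and 6.12 and 4.14 in vehicle in A549, and 195 to 311 with decitabine and 270 and 274 in vehicle in H1299 (0.79, adjusted p = 0.005). IFIT1 had an interaction of 0.89 and fell by 0.70 in H1299, and its interaction was lost under 5 alternatives. Of 17 tested genes of class I antigen presentation 1 was called, HLA-E (-0.64), which rose by 0.70 in H1299.

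Of 57 tested G1/S and replication genes 4 were positive and 6 negative, and of 70 tested G2/M and mitosis genes 4 were positive and 5 negative. The shares, 7.02% and 10.5% for G1/S and 5.71% and 7.14% for G2/M, stand beside 8.44% and 7.44% over all genes. At 3 µM the G1/S genes had 4 positive and 11 negative interactions and the G2/M genes 1 and 12, which is 19.3% and 17.1% negative beside 7.85% over all genes. Without A549 decitabine 3 µM replicate 1 or H1299 decitabine 3 µM replicate 2 the 11 were 7, and without H1299 decitabine 3 µM replicate 1 the 12 were 7. In A549 28 of the G1/S genes (49.1%) and 22 of the G2/M genes (31.4%) fell, beside 10.1% over all genes, and in H1299 19 (33.3%) and 18 (25.7%) fell, beside 15.8%. The A549 counts were 17 and 11 without the 3 µM groups, and the 22 were 13 without A549 vehicle replicate 1. The H1299 counts were 10 for G1/S without H1299 vehicle replicate 1 and 11 for G2/M without H1299 vehicle replicate 2. The G1/S counts were 2 positive without A549 vehicle replicate 1, A549 decitabine 0.3 µM replicate 1, A549 decitabine 1 µM replicate 2, H1299 vehicle replicate 2 or H1299 decitabine 3 µM replicate 2, and 3 negative without H1299 vehicle replicate 2. The G2/M positive count was 2 without A549 vehicle replicate 1 or H1299 vehicle replicate 1. STMN1, a tubulin-binding protein, read 722 and 652 in vehicle, 491 and 550 at 0.3 µM, 358 and 366 at 1 µM and 250 and 323 at 3 µM in A549, and 1654 to 1902 with decitabine and 1788 and 1660 in vehicle in H1299 (-0.84, adjusted p = 1.7e-04). UNG, the uracil DNA glycosylase, fell by 0.52 in A549 and rose by 0.25 in H1299 (-0.77, adjusted p = 3.4e-04). The H1299 arrays of UNG overlapped, at 1678 to 2137 with decitabine and 1727 and 1600 in vehicle. KIF2C, a mitotic kinesin, fell by 0.31 in A549 and rose by 0.23 in H1299 (-0.53, adjusted p = 0.0011). PCNA, the sliding clamp of DNA polymerases, fell by 0.39 in H1299 with an A549 response of 0.17 (0.57, adjusted p = 2.7e-04).

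Of 26 tested genes of cytidine analog uptake and metabolism 1 was positive and 3 were negative. DCK, the kinase that activates decitabine, had an interaction of -0.14 (95% interval -0.44 to 0.15). The interaction was 0.39 (95% interval -0.21 to 0.99) for CDA, which deaminates it, -0.17 (95% interval -0.50 to 0.16) for SLC29A1, a nucleoside transporter, and -0.15 (95% interval -0.50 to 0.20) for SAMHD1, a triphosphohydrolase. None of these 4 was called. CDA read 143 to 303 with decitabine and 125 and 144 in vehicle in A549, and at most 34.3 on the H1299 arrays. UPP1, uridine phosphorylase, rose in both lines and more in H1299 (-0.81, adjusted p = 0.0012). The drug's targets DNMT1 and DNMT3B had interactions of -0.19 (95% interval -0.36 to -0.02) and -0.41 (95% interval -0.71 to -0.10); at adjusted p = 0.12 and 0.068 neither was called. DNMT1 read 1119 to 1306 with decitabine and 1458 and 1420 in vehicle in A549, and 2340 to 2789 with decitabine and 2577 and 2792 in vehicle in H1299. Over 13 tested genes of the DNA methylation machinery 1 was positive, PCNA at 0.57, and 0 were negative by limma, against 2 and 2 at an unadjusted p under 0.05.

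Of 20 tested secretory and lung lineage genes of A549 2 were positive and 1 was negative, the list's median interaction being -0.08. TM4SF1, a tetraspanin-like membrane protein, was positive at 0.54. MUC5AC, a gel-forming mucin, was positive at 0.59 and lost its call under 10 of 28 alternatives, and CES1, a carboxylesterase, was negative at -1.04 and lost it under 6 of 29. Both calls were lost when any 1 of the 4 vehicle arrays was left out. The list had 1 positive and 2 negative interactions without A549 vehicle replicate 1.

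Of 31 tested NRF2 targets 4 were positive and 6 negative. These counts were 2 and 2 without A549 vehicle replicate 1, the positive count was 2 without H1299 vehicle replicate 1, and the negative count was 2 without H1299 vehicle replicate 2 and 1 without the 3 µM groups. GPX2, a glutathione peroxidase, read 4306 to 5993 with decitabine and 2687 and 3011 in vehicle in A549, with at most 33.2 on the H1299 arrays (1.23, adjusted p = 0.002). HMOX1, heme oxygenase, fell by 0.68 in A549 and rose by 0.43 in H1299. Of 62 tested oxidative phosphorylation genes 2 were positive and 1 negative, the last being COX7A1, a subunit of cytochrome oxidase, which read 31.6 to 69.8 with decitabine and 4.71 and 3.06 in vehicle in A549, and 118 to 265 with decitabine and 1.83 and 2.72 in vehicle in H1299 (-1.52, adjusted p = 1.9e-05). The 2 positive calls were 5 without A549 vehicle replicate 2 or A549 decitabine 1 µM replicate 1, 4 without A549 decitabine 3 µM replicate 2, H1299 decitabine 0.3 µM replicate 1 or H1299 decitabine 1 µM replicate 2, and 1 without H1299 vehicle replicate 2. Of 22 tested BCL2 family and death receptor genes 4 were positive and 2 negative, with 2 positive without A549 vehicle replicate 1 or H1299 vehicle replicate 2, and 1 negative when any 1 of the 4 vehicle arrays was left out. HRK, a BH3-only protein (1.44), was the largest positive one, with a call lost with a constant of 1 (adjusted p = 0.056), and fell by 0.98 in H1299. Of 30 tested housekeeping genes 1 was positive.

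Of 19 leukocyte markers 2 passed the filter, and their summed signal was 159 to 250 in A549 with decitabine and at most 133 in vehicle, and 233 to 335 in H1299 with decitabine and 136 to 184 in vehicle. CORO1A, an actin-binding protein, was called (-0.88, adjusted p = 0.031), and the call was lost under 9 alternatives. Of 17 endothelial and fibroblast markers 3 passed the filter and limma called 0 (0 positive and 1 negative at an unadjusted p under 0.05). Across chromosomes the share of genes called ran from 11.6% on chromosome 16 to 23.4% on chromosome 10, beside 15.9% over all.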

How the data were processed

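RNA of A549 and H1299 was measured on 28 arrays in 14 groups, and the 16 with vehicle or decitabine enter the comparisons. The deposited values are MAS5 intensity, a linear signal per probe set, computed by the authors with MAS5 per the submitters' processing notes; version and scaling target are not given in the sources used here. The mean after trimming 2% at either end was 500.125 to 500.159 on every array, and array medians were 94 to 123 over the 16.

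Of 22277 probe sets, 19064 name 1 gene, 1043 several and 2108 none, and 62 are controls. Symbols come from the platform annotation. Kept probe sets lay above the array median on at least 2 arrays (13297), and each gene took its kept probe set of highest mean, leaving 8024 of 11963 genes. Of the 1274 called genes, 428 had more than 1 kept probe set, and in 2 another one went the opposite way. log2(signal + 32) was fitted in limma 3.58.1 (R 4.3.3) with 1 mean per group over all 28 arrays, an intensity trend and 14 residual degrees of freedom. Adjusted p-values are limma's, two-sided, by Benjamini-Hochberg over 8024 genes, with a threshold of 0.05. The code was tested on simulated data.

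Named genes were the 15 largest positive and 15 largest negative interactions with lines that do not overlap, the 4 largest called members of each list, the 5 largest on either side called in opposite directions, the 3 largest changes with dose on either side, and fixed genes, of which UHRF1 was not tested. KHDC1L and all others follow this rule except CDKN2A. Members and lists were chosen with earlier results of these data known. Alternatives covered normalization, pseudocounts of 1 and 128, filters, probe sets, the arrays fitted, a replicate block, a fold threshold and arrays left out.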

Additional observations from a re-analysis of the deposited data

Results flagged for a closer look

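A test of the difference itself separated the lines in 1274 genes over the 3 doses, 401 at 0.3 µM, 833 at 1 µM and 1383 at 3 µM, and the difference changed with dose in 303. EMP1 (1.68), GLDC (1.60), TSPAN12 (1.40), TENT5A (1.35) and CRYBG1 (1.24) were called in opposite directions, higher with decitabine in A549 and lower in H1299, as interactions on the log2 scale. IRS2 (-1.84), CXCL2 (-1.75), IL11 (-1.60), SMAD6 (-1.44) and BST1 (-1.41) were lower in A549 and higher in H1299. The A549 calls of EMP1 and CXCL2 were lost without the 3 µM groups. The response of each line rests on 2 vehicle arrays: of the 10, GLDC, IL11 and TENT5A kept their A549 call when one or the other A549 vehicle array was left out, and the H1299 call of TENT5A was lost without H1299 vehicle replicate 1 (adjusted p = 0.054, limma). The interaction changed between 0.3 and 3 µM by 2.53 for LY6D, 1.94 for MAPK3 and 1.91 for TSPAN1, and by -2.05 for EGR3, -1.83 for ARL14 and -1.40 for NR4A3.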

How the results depend on the processing

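Leaving out 1 of the 16 arrays gave 830 to 1266 calls of the interaction over doses, 239 to 397 at 0.3 µM, 550 to 857 at 1 µM, 988 to 1403 at 3 µM, 130 to 334 for the change with dose, 982 to 1954 in A549 and 1517 to 2600 in H1299. The lowest of these counts came without a vehicle array for the interaction over doses, at 1 µM and in either line, and without a decitabine array for the other 3. Asking for a log2 difference of at least 1 left 199, 142, 212, 321, 45, 100 and 181 in the same order. Without the 3 µM groups the interaction had 804 calls and A549 1252. The change with dose had 189 calls with median centring and 155 with the 16 arrays fitted alone. Leaving out the doubted A549 arrays together, chosen after seeing the data, gave 873 at 3 µM, 149 for the change with dose and 914 in A549. Of 120 named genes, EPCAM reversed, to 0.395 (adjusted p = 0.0167, limma) with the larger pseudocount; the cause was not tested. Whether replicate numbers pair the samples was not settled. Correlations of same-numbered deviations were -0.244 to 0.263 within a line, 12 of 42 over 0.1. Between lines they were -0.127 to 0.135, 5 of 49 over 0.1. A549 vehicle had 0.030, 0.162 and -0.244 with A549 decitabine at 0.3, 1 and 3 µM. The replicate block gave 1339 calls of the interaction, beside 1274 without it, and changed no call of the 120. Interactions lost under the most alternatives were IFITM1, H1-2, TYMS, CDKN1A and BIK. Probe sets near the floor have little order, so differences that rest on dim signals are the least certain.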
